A study of Mus musculus with 36 samples.

Results

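The R-spondins, their Lgr receptors and *Tnfrsf19* were followed across CHIR doses and knockouts in cultured mouse nephron progenitor cells (NPCs). The members were the rows of the 3 expression tables whose Ensembl identifiers carry the symbols *Lgr4*, *Lgr5*, *Lgr6*, *Rspo1*, *Rspo2*, *Rspo3* and *Tnfrsf19*. These are 7 genes of the 30125 listed in any table. Of these, 6 passed the filter on low values in each table, and *Rspo2* passed it in none.

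R-spondins are secreted proteins that raise the sensitivity of a cell to Wnt ligands. They bind the receptors Lgr4, Lgr5 and Lgr6 and the membrane ubiquitin ligases Znrf3 and Rnf43, which otherwise clear Frizzled receptors and the co-receptor Lrp6 from the cell surface. Tnfrsf19 (Troy), a member of the tumor necrosis factor receptor family without a death domain, is known as a Wnt target that marks intestinal stem cells together with Lgr5. CHIR99021 (CHIR) inhibits the kinase GSK3β and so stabilizes β-catenin below the level of these receptors.

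Primary NPCs from embryonic mouse kidneys were grown in a defined progenitor medium, and RNA from 36 bulk libraries in 15 groups was sequenced. Wild-type NPCs were cultured in no (0 µM), low (1.25 µM) or high (5 µM) CHIR, with 3 libraries per dose. β-catenin was removed in 2 ways. NPCs of genotype B-catenin_c_c, which carry conditional *Ctnnb1* alleles, were transfected with or without Cre mRNA. NPCs of Cas9-eGFP mice received 4 pooled sgRNAs against *Ctnnb1* or an sgRNA against GFP. Each of these 8 groups, in low or high CHIR, held 2 libraries. For the quadruple knockout (QKO) of the DNA-binding partners of β-catenin, Cas9-eGFP NPCs received 1 sgRNA each against *Tcf7l1*, *Tcf7l2*, *Tcf7* and *Lef1*, and their controls the GFP sgRNA. These groups held 3 libraries each, except for QKO in low CHIR, which held 2. The knockout period in low CHIR was 24 h for *Ctnnb1* and 48 h for Tcf/Lef, followed by 24 h in low or high CHIR. mCherry mRNA was co-transfected and mCherry-positive cells were sorted, so all controls shared the alleles, transfection and sort of their knockouts. Nothing in the labels says that replicates came from separate animals or cultures, so p-values measure the spread among these libraries, which may be technical.

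Reads on genes ranged from 13651129 to 76071568 per wild-type library, from 14537850 to 27838106 in the β-catenin experiments and from 13089780 to 20152719 in the Tcf/Lef experiment. The tables were normalized separately, so tests stayed within a table and levels set across tables are only side by side. *Ctnnb1* ranged from 1040 to 1652 normalized counts in the 4 *Ctnnb1* sgRNA libraries and from 2521 to 3397 in their GFP controls. With Cre it was 2254 to 3085, against 2207 to 3880 without Cre, so counts over the whole gene do not show that deletion. *Tcf7* in low CHIR was 66.2 to 97.7 normalized counts in QKO and 141 to 220 in its controls, and in high CHIR 110 to 180 against 268 to 535. *Lef1* in high CHIR was 255 to 513 against 1144 to 2743. *Tcf7l1* in low CHIR was 827 to 1286 against 1736 to 2225. For *Tcf7l1* in high CHIR, *Tcf7l2* at both doses and *Lef1* in low CHIR (21.5 to 87.1 against 19.9 to 120), QKO and control libraries overlapped. In high CHIR *Lef1* was also lower with Cre, without a *Lef1* sgRNA (102 to 161 against 1090 to 1568). Its drop in QKO alone therefore does not show the knockout. The 10 nephron progenitor markers (*Six2*, *Cited1* and others) summed to 32583 to 37045 normalized counts in wild-type NPCs without CHIR and to 4288 to 9726 in high CHIR, where *Osr1* was at 0. The 6 markers of induced nephron cells (*Wnt4*, *Lhx1*, *Jag1* and others) summed to 1428 to 2950 and 24388 to 33698 in the same groups. Wild-type high CHIR replicate 3 stood apart from its group, and the induced markers split in it. There *Wnt4* was 11108 normalized counts against 1315 and 1473 in the other high CHIR libraries, and *Lhx1* 104 against 5949 and 6706. That *Lhx1* value lay below all libraries without CHIR (123 to 291). This replicate had 1336 normalized counts of *Flt1* where the other libraries had 93.0 and 39.1. Of *Tek*, another endothelial marker, it had 13.1 where they had 769 and 586, so these markers did not move together. Its 6 listed ureteric markers summed to 712 where the other libraries reached 5265 and 5428. Wild-type high CHIR results of the members and of the partner genes named are therefore also given without it.

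The promoters of *Tnfrsf19* and *Rspo1* are printed because these were the members called in most dose comparisons of wild-type NPCs, in opposite directions. Windows from 250 bases before to 50 bases after a RefSeq start site (GRCm38.p6) were listed for 4 of the 7 members, with 2 windows for *Tnfrsf19*. *Lgr5*, *Rspo2* and *Rspo3* had no entry. The Tcf/Lef core words, which are CTTTG followed by 2 letters that are each A or T, were searched on both strands. Capitals mark a match. The *Tnfrsf19* windows lie on the minus strand at chr14:61037938-61038237 (start site 1) and chr14:61046806-61047105 (start site 2), and that of *Rspo1* on the plus strand at chr4:124986180-124986479.
Tnfrsf19, start site 1: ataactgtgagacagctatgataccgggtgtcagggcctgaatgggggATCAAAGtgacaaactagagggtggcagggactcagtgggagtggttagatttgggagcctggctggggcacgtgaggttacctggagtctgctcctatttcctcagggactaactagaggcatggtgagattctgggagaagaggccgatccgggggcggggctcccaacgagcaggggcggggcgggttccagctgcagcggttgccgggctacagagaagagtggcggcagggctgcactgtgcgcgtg
Tnfrsf19, start site 2: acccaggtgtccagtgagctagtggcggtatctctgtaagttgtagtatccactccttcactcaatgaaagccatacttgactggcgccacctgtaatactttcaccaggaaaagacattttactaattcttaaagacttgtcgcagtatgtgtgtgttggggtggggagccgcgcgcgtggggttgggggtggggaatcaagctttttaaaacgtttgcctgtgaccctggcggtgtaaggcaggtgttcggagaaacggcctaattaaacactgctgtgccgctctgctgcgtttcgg
Rspo1: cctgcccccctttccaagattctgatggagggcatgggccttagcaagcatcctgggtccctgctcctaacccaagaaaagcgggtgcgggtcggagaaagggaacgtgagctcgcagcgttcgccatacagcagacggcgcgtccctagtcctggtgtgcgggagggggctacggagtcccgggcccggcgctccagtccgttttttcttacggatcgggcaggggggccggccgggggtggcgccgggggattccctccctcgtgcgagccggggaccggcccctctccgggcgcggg
The first *Tnfrsf19* window holds ATCAAAG, the opposite-strand reading of CTTTGAT, beginning 202 bases before the start site. None of the words was found in the other *Tnfrsf19* window or in those of *Rspo1*, *Lgr4* and *Lgr6*, so 1 of 5 windows held one. Of all 32851 promoter windows of this length, 16.9% held at least 1 of the words, so a match here is a description of the letters and no more.

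The genes lie apart in the genome (GRCm38, GENCODE vM21), on 6 chromosomes. *Rspo1* (ENSMUSG00000028871) is at chr4:124986430-125009099, *Rspo2* (ENSMUSG00000051920) at chr15:43020794-43170826 and *Rspo3* (ENSMUSG00000019880) at chr10:29452416-29535867. *Lgr4* (ENSMUSG00000050199) is at chr2:109917647-110014257, *Lgr5* (ENSMUSG00000020140) at chr10:115450311-115587780 and *Lgr6* (ENSMUSG00000042793) at chr1:134983301-135105276. *Tnfrsf19* (ENSMUSG00000060548) is at chr14:60963875-61046490. *Lgr4* and *Rspo1* are on the plus strand and the others on the minus strand.

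Levels were compared between genes only per kilobase of exon. In wild-type NPCs in low CHIR, *Lgr4* was the most abundant member at 224 normalized counts per kilobase (196 to 248, n = 3). *Rspo1* followed at 73.3 and *Tnfrsf19* at 68.4 per kilobase, and their libraries overlapped. *Lgr5* at 29.3, *Rspo3* at 14.7 and *Lgr6* at 5.36 per kilobase came next without overlapping their neighbours, and *Rspo2* was at 0. Without CHIR the order was *Lgr4* (209.6), *Rspo1* (103), *Rspo3* (34.8), *Lgr5* (32.2), *Tnfrsf19* (6.62), *Rspo2* (5.30) and *Lgr6* (1.79 per kilobase). Here *Rspo3* overlapped *Lgr5*, and the last 3 genes overlapped their neighbours. In high CHIR *Tnfrsf19* stood at the top with 283 normalized counts per kilobase (117 to 602), overlapping *Lgr4* at 190.1. *Lgr5* (40.1) then overlapped *Rspo3* (25.7), which overlapped *Lgr6* (17.2), which overlapped *Rspo1* (7.90 per kilobase). *Rspo2* came last at 0.183, without overlap. High CHIR replicate 3 set part of this order. In replicates 1 and 2 *Tnfrsf19* was at 132 and 117 per kilobase, below *Lgr4* at 195 and 236. *Lgr6* was there at 1.47 and 1.83, below *Rspo1* at 3.47 and 4.32.

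**Figure D1:**
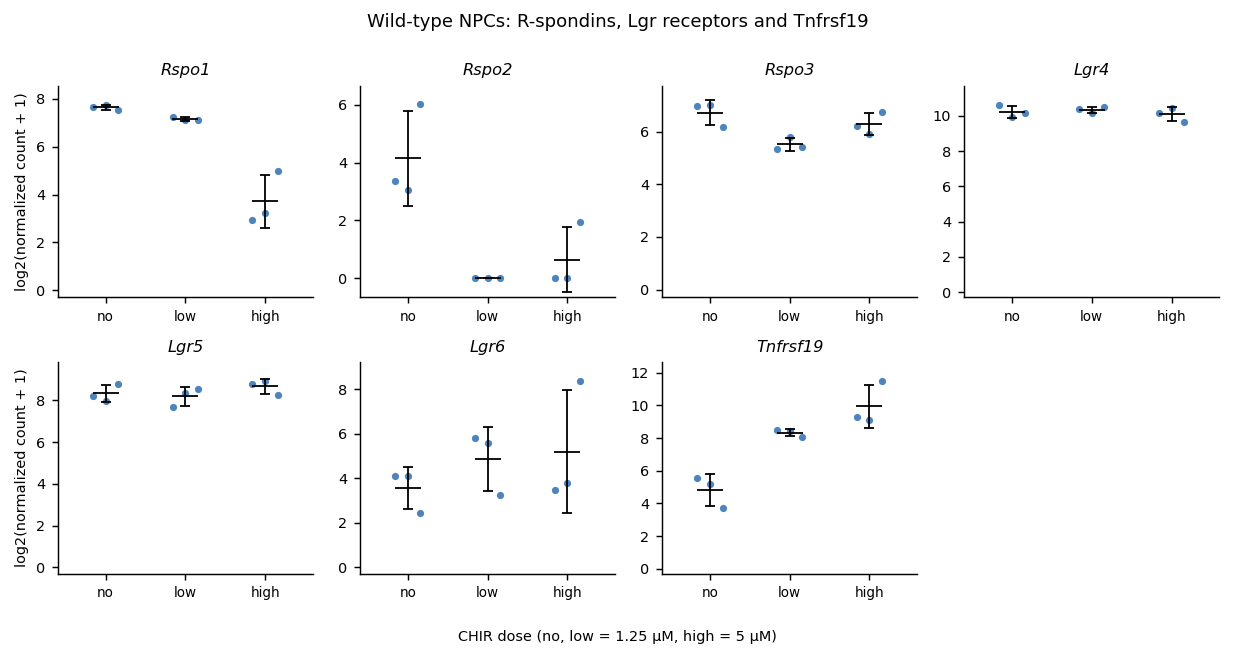
Expression of the 7 members in wild-type NPCs on the log2(normalized count + 1) scale (y axis) by CHIR dose (x axis); points are libraries (n = 3) and bars the mean ± SD. *Rspo1* dropped from 137 to 149.8 normalized counts in low CHIR to 6.72 to 30.8 in high CHIR, while *Tnfrsf19* was lowest without CHIR (12.3 to 46.6) and highest in high CHIR (553 to 2849.8).

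The wild-type doses address how CHIR changes these genes between a culture without CHIR, the low dose used for self-renewal and the high dose used for induction. *Rspo1* fell 10.8-fold between low and high CHIR, and *Tnfrsf19* was 11.4-fold lower without CHIR than in low CHIR. A gene was called changed where its adjusted p was under 0.05 and it moved by at least 0.5 on the log2 scale, from limma on log2(normalized count + 1) with Benjamini-Hochberg adjustment over all genes tested. Fold changes on this scale understate those of low genes. The count tests (edgeR and DESeq2 on recovered reads) lacked 3 libraries, namely low CHIR GFP sgRNA control replicate 1 and high CHIR Cre-positive replicate 1 of the β-catenin experiments and high CHIR control replicate 2 of the Tcf/Lef experiment. In comparisons with these groups they therefore change both the tool and the libraries. Of the 6 members tested, 1 was called between high and low CHIR, against 10.4% of all genes. Between no and low CHIR 1 member was called, against 4.97% of all genes, and between high and no CHIR 2 were called, against 23.4%.

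*Rspo1*, the R-spondin with the highest level per kilobase in no and low CHIR, had 202, 215 and 183 normalized counts in no CHIR and 149.8, 139.6 and 137 in low CHIR. In high CHIR it had 6.72, 8.38 and 30.8. The high CHIR libraries lay below all others, while the no CHIR libraries lay above those in low CHIR. The log2 fold change was -3.43 ± 0.46 (SE, adjusted p = 0.00115, limma) for high against low CHIR and -3.92 ± 0.46 (adjusted p = 0.000276) for high against no CHIR. Without high CHIR replicate 3 these were -4.07 and -4.56. Between no and low CHIR the log2 fold change was 0.49 ± 0.46, which did not pass the test (adjusted p = 0.585, limma). As these are bulk samples, fewer cells that make a transcript and less of it per cell cannot be told apart, here or below.

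Among wild-type NPCs, *Rspo2* was found mainly without CHIR, at 9.18, 7.32 and 64.8 normalized counts (36, 5 and 58 reads). It was at 0 in all 3 low CHIR libraries, and at 0, 0 and 2.80 (3 reads) in high CHIR. Its mean of 27.1 normalized counts in no CHIR was at least 7.83-fold that in low CHIR, taking a floor of 3 reads in each low CHIR library. The bound is 2.65-fold for the median of the 3 libraries and 2.38-fold for the mean without the third library. The floor covers counting error only. *Rspo2* was below the filter on low values. In a limma fit with no filter its adjusted p was 0.0266 for no against low CHIR.

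*Rspo3* had 124, 129 and 70.4 normalized counts in no CHIR, 39.4, 55.1 and 41.9 in low CHIR and 72.8, 58.6 and 107 in high CHIR. The low CHIR libraries lay below all others. Its log2 fold change for no against low CHIR was 1.19 ± 0.34 (SE, adjusted p = 0.0698, limma), just outside the threshold, and DESeq2 on recovered reads put it inside (adjusted p = 0.0125, and 0.0125 to 0.0900 over the 7 alternative settings). For high against low CHIR it was 0.76 ± 0.34 (adjusted p = 0.193), and 0.53 without high CHIR replicate 3 (adjusted p = 0.420). The 9 stroma markers, all listed, summed to 7353 to 29140 normalized counts in no CHIR, 11240 to 16873 in low CHIR and 3871 to 11484 in high CHIR. Their part in the *Rspo2* and *Rspo3* levels was not tested.

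The receptors of the R-spondins passed no test between wild-type doses. *Lgr4*, the most widely expressed of the Lgr receptors, had 1573, 981 and 1146 normalized counts in no CHIR, 1338, 1151 and 1461 in low CHIR and 1147, 1390.3 and 818 in high CHIR. These ranges overlapped, with a log2 fold change of -0.26 ± 0.23 for high against low CHIR (adjusted p = 0.528, limma), and -0.05 without high CHIR replicate 3 (adjusted p = 0.917). *Lgr5*, known as a stem cell marker of the intestine, had 296, 253 and 443 normalized counts in no CHIR, 206, 322 and 375 in low CHIR and 445, 483 and 307 in high CHIR, which overlapped too. Its log2 fold change for high against low CHIR was 0.47 ± 0.29 (adjusted p = 0.367), and 0.66 without high CHIR replicate 3 (adjusted p = 0.178).

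*Lgr6*, which marks stem cells of skin, was the lowest of the 3 receptors. In no CHIR it had 16.3, 16.1 and 4.47 normalized counts. It had 55.2, 46.5 and 8.38 normalized counts in low CHIR and 10.1, 12.6 and 331 in high CHIR. A lone library, high CHIR replicate 3, carried the high value. The log2 fold change of high against low CHIR was 0.33 ± 1.22 (SE, adjusted p = 0.903, limma) with that library and -1.26 (adjusted p = 0.391) without it.

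*Tnfrsf19* was higher at each higher dose, with 46.6, 35.1 and 12.3 normalized counts in no CHIR, 360.0, 344 and 268 in low CHIR and 625, 553 and 2849.8 in high CHIR. No library of a higher dose reached down to those of a lower one. The log2 fold change for no against low CHIR was -3.51 ± 0.62 (SE, adjusted p = 0.0146, limma). For high against no CHIR it was 5.13 ± 0.62 (adjusted p = 0.000313), which is 35.1-fold. The call between no and low CHIR was lost when no CHIR replicate 2 (adjusted p = 0.0504) or 3 (0.0695), or low CHIR replicate 1 (0.0647) or 2 (0.0717), was left out, with log2 fold changes of -3.68, -2.96, -3.42 and -3.46. For high against low CHIR the log2 fold change of 1.63 ± 0.62 did not pass the test (adjusted p = 0.130), and over the 7 alternative settings the adjusted p was 0.0415 (DESeq2) to 0.164. High CHIR replicate 3 held the highest *Tnfrsf19* value of the table. Without it the log2 fold changes were 0.87 (adjusted p = 0.258, limma) against low CHIR and 4.37 (adjusted p = 3.12e-05) against no CHIR.

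The same step from low to high CHIR could be read in the 3 sets of control NPCs, which had been transfected and sorted. *Tnfrsf19* rose in each. In the Cre-negative controls it went from 159.9 and 207 to 1172 and 893 normalized counts (log2 fold change 2.49 ± 0.33, adjusted p = 0.000302, limma). In the GFP sgRNA controls of the β-catenin experiment it went from 162 and 96.3 to 792 and 1012 (2.83 ± 0.33, adjusted p = 0.000122). In the GFP sgRNA controls of the Tcf/Lef experiment 163, 86.8 and 158 became 1053, 558 and 669.8 (2.48 ± 0.31, adjusted p = 0.000243). Low and high CHIR libraries did not overlap in any of the 3 experiments.

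Other members moved in some control sets and not in others, and these differences between experiments were not tested. Of 6 members tested, 3 were called in each of the 3 sets, against 8.05% of all genes in the Cre-negative, 7.51% in the GFP sgRNA and 14.9% in the Tcf/Lef controls. In the GFP sgRNA controls these include *Lgr6*, which passed the filter only through its high CHIR values there. *Rspo1* went from 274 and 168 to 91.1 and 49.8 normalized counts in the Cre-negative controls (log2 fold change -1.65 ± 0.38, adjusted p = 0.0147, limma). The call was lost without the low CHIR replicate 1 (-1.30, adjusted p = 0.144) or the high CHIR replicate 2 (-1.23, adjusted p = 0.138), and where only these groups were fitted (adjusted p = 0.0868, the highest of the 7 alternative settings). In the Tcf/Lef controls it went from 204, 173 and 67.4 to 26.4, 19.2 and 27.6 (-2.42 ± 0.39, adjusted p = 0.00143). In the GFP sgRNA controls of the β-catenin experiment it was 127 and 109 in low and 113 and 116 in high CHIR (-0.04 ± 0.38, adjusted p = 0.961).

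*Lgr5* showed another spread among these sets. In the GFP sgRNA controls of the β-catenin experiment it fell from 328 and 588 to 66.7 and 79.4 normalized counts (log2 fold change -2.58 ± 0.51, adjusted p = 0.00660, limma). Leaving out low CHIR replicate 2 (-2.16, adjusted p = 0.0794) or high CHIR replicate 1 (-2.45, adjusted p = 0.0542) ended that call. In the Cre-negative controls 218 and 239 stood against 61.7 and 89.2 (-1.61 ± 0.51, adjusted p = 0.0738, and 0.00807 with the replicate block), without overlap. The Tcf/Lef controls overlapped, at 352, 679 and 729.6 in low and 263, 533 and 436 in high CHIR (-0.50 ± 0.33, adjusted p = 0.356). With the replicate block, a fit that pairs libraries of the same replicate number, this *Lgr5* difference had an adjusted p of 0.0340.

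*Lgr4* was lower in high CHIR in all 3 control sets, and the groups did not overlap in any. It went from 1125 and 975 to 655 and 654 normalized counts in the Cre-negative controls (log2 fold change -0.68 ± 0.18, adjusted p = 0.0380, limma). Leaving out low CHIR replicate 1 (adjusted p = 0.206) or either high CHIR library (0.144 and 0.135) ended this call, as did fitting only these groups (0.194, the highest of the 7 alternative settings) or using no filter (0.0578). In the Tcf/Lef controls it went from 965, 1011 and 707 to 476, 625 and 440.2 (-0.80 ± 0.18, adjusted p = 0.00910). The 899 and 1211 against 710.4 and 749 of the GFP sgRNA controls did not pass the test (-0.52 ± 0.18, adjusted p = 0.120).

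*Lgr6* was higher in high CHIR in the same control sets. It went from 12.9 and 3.25 to 69.7 and 51.7 normalized counts in the GFP sgRNA controls of the β-catenin experiment (log2 fold change 2.99 ± 0.83, adjusted p = 0.0450, limma). In the β-catenin experiments *Lgr6* passed the filter on low values only through these high CHIR libraries. This call is thus drawn from the group in which the gene is high. This call was lost with a pseudocount of 0.5 (adjusted p = 0.0617), with no filter (0.0592), in edgeR, which here lacked low CHIR replicate 1 (0.0794), and without low CHIR replicate 2 (2.13, adjusted p = 0.262), high CHIR replicate 1 (2.78, 0.228) or high CHIR replicate 2 (3.2, 0.174). In the Tcf/Lef controls 3.67, 10.9 and 7.78 stood against 17.3, 28.3 and 21.3, without overlap (1.54 ± 0.52, adjusted p = 0.0678, and 0.00636 with the replicate block). The Cre-negative values were 1.11 and 2.75 in low and 27.6 and 7.26 in high CHIR (2.45 ± 0.83, adjusted p = 0.0966). *Rspo3* passed no test between doses in any control set, with log2 fold changes of 0.29, -0.31 and -0.51.

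**Figure D2:**
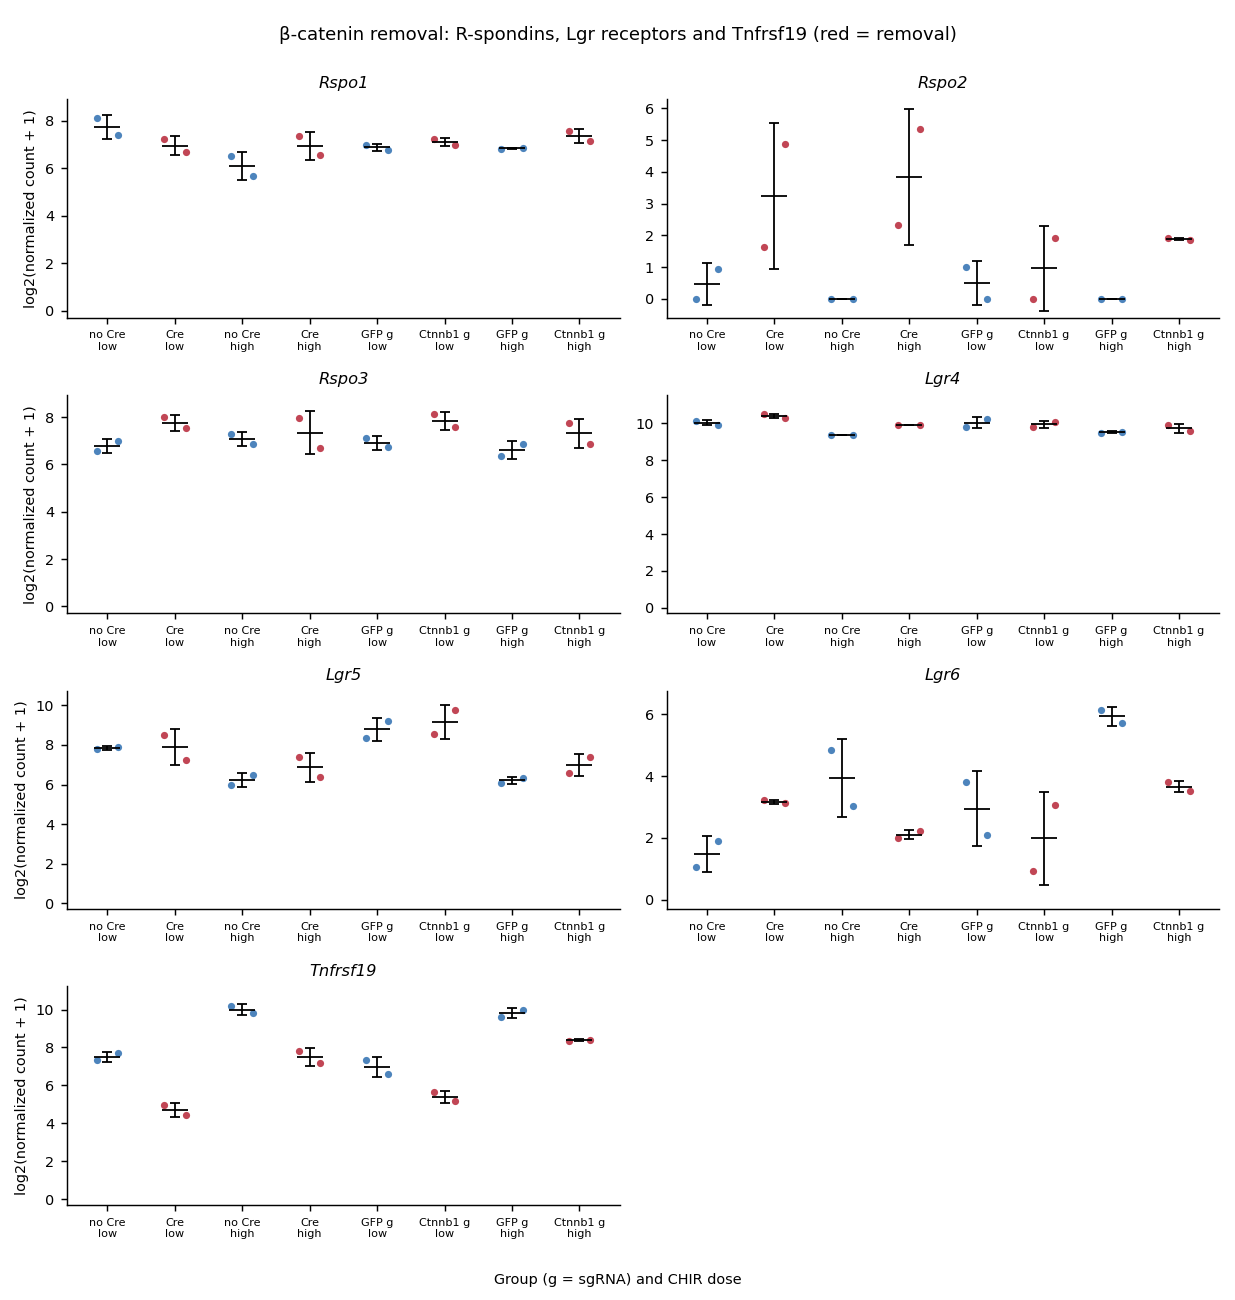
Expression of the 7 members in controls (blue) and after β-catenin removal (red) on the log2(normalized count + 1) scale (y axis) by allele or sgRNA (g) and CHIR dose (x axis); points are libraries (n = 2) and bars the mean ± SD. *Tnfrsf19* lay lower in all 4 removal groups than in their controls, for example 143 to 226 against 893 to 1172 normalized counts with Cre in high CHIR.

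Removal of β-catenin addressed which of these genes depend on it at each dose. In the paper's staining the loss of membrane β-catenin protein was partial with either method. *Tnfrsf19* fell 7.07-fold with Cre in low CHIR, 5.66-fold with Cre in high CHIR and 2.69-fold with *Ctnnb1* sgRNAs in high CHIR. Of the 6 members tested it was the only member called by limma in each of these comparisons, against 0.328%, 8.65% and 5.09% of all genes. With *Ctnnb1* sgRNAs in low CHIR limma called no member, against 0.0536% of all genes. There, 2 members (*Rspo3* and *Tnfrsf19*) had an unadjusted p under 0.05. The count tests lacked control replicate 1 in this comparison, which left a lone control library, so their calls are not given. From its own DESeq2 tests, the paper lists *Tnfrsf19* among the genes lower in low CHIR with both methods.

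*Tnfrsf19* had 159.9 and 207 normalized counts in the Cre-negative and 30.0 and 20.6 in the Cre-positive NPCs in low CHIR. The log2 fold change was -2.82 ± 0.33 (SE, adjusted p = 0.00161, limma), with an adjusted p of 0.134 where only these 4 libraries were fitted, the highest of the 7 alternative settings. In high CHIR, 1172 and 893 stood against 226 and 143 (-2.50 ± 0.33, adjusted p = 0.000292). With the *Ctnnb1* sgRNAs in high CHIR, 792 and 1012 in the controls stood against 326 and 339.8 (-1.42 ± 0.33, adjusted p = 0.0249). The groups did not overlap. The call with sgRNAs was lost without any of its 4 libraries: removal replicate 1 (-1.40, adjusted p = 0.120) or 2 (-1.45, 0.161), or control replicate 1 (-1.60, 0.0737) or 2 (-1.25, 0.237). In low CHIR with sgRNAs, 162 and 96.3 stood against 48.5 and 34.9 (-1.58 ± 0.33, adjusted p = 0.320, and 0.0636 with the replicate block).

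*Tnfrsf19* was also higher in high than in low CHIR after β-catenin removal, a comparison chosen after the data were seen. The part of remaining β-catenin in this dose response was not tested. With Cre, 30.0 and 20.6 became 226 and 143 normalized counts (log2 fold change 2.81 ± 0.33, adjusted p = 0.00240, limma), and with *Ctnnb1* sgRNAs 48.5 and 34.9 became 326 and 339.8 (2.99 ± 0.33, adjusted p = 0.000525). With Cre the adjusted p was 0.282 where only the 4 libraries were fitted, the highest of the 7 alternative settings. It was the 1 member called in each, against 0.292% and 0.763% of all genes. With the replicate block *Lgr5* was called as well after *Ctnnb1* sgRNAs, with 377 and 868 in low and 94.8 and 167 in high CHIR (-2.17, adjusted p = 0.00476). The difference between the dose responses after removal and in the controls was 0.32 ± 0.47 on the log2 scale with Cre (adjusted p = 0.902) and 0.15 ± 0.47 with sgRNAs (adjusted p = 0.974). In these interaction tests limma called no member, against 0.995% and 0.518% of all genes. With Cre 2 members (*Lgr6* and *Rspo1*) had an unadjusted p under 0.05 and with sgRNAs 0. In both, the count tests were left with a lone library in a group, so their calls are not given.

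Among the ligands, *Rspo1* in high CHIR had 91.1 and 49.8 normalized counts without and 166 and 92.3 with Cre (log2 fold change 0.87 ± 0.38, adjusted p = 0.206, limma). With sgRNAs it had 113 and 116 in the controls and 189.7 and 142 after removal (0.51 ± 0.38, adjusted p = 0.498). Every removal library lay above its controls. Neither difference passed the test without the replicate block, and with it the difference with Cre did (adjusted p = 0.0201). From low to high CHIR, *Rspo1* in Cre-positive NPCs went from 150.1 and 102 to 166 and 92.3, overlapping (0.00 ± 0.38), and the interaction with dose was 1.66 ± 0.53 (adjusted p = 0.260, and 0.0129 with the replicate block).

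*Rspo3* lay higher after β-catenin removal in low CHIR by both methods. It had 93.3 and 125 normalized counts without and 251 and 183 with Cre (log2 fold change 0.99 ± 0.43, adjusted p = 0.426, limma). With sgRNAs, 139 and 104 stood against 277 and 189 (0.92 ± 0.43, adjusted p = 1). Neither pair of groups overlapped and neither passed the test. *Rspo2* reached 2.07 and 28.3 normalized counts (2 and 22 reads) with Cre in low CHIR and 4.04 and 40.1 (4 and 33 reads) in high CHIR, and in both groups replicate 2 held nearly all the reads. Without Cre it was 0 to 0.916, and it was 0 to 2.76 with either sgRNA.

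Markers of other cell types were measured in the same libraries. The 9 stroma markers, all listed, summed to 5075 to 11035 normalized counts in Cre-negative and 11014 to 16133 in Cre-positive NPCs in low CHIR. For the sgRNAs in low CHIR the sums were 8919 to 21356 in the controls and 13555 to 26257 after removal, which overlapped, and 0 of 8 tested stroma markers were called in any removal comparison. The 7 endothelial markers summed to 172 to 189 and 783 to 1205 in the Cre groups and to 105 to 161 and 524 to 745 in the sgRNA groups, with none at 0 throughout. Nearly all of this was *Emcn*, the 1 of them that was tested, which limma called higher in all 4 removal comparisons, at 165 and 147 without and 1174 and 748 with Cre, while *Pecam1*, *Cdh5*, *Flt1* and *Tek*, which define endothelium, were between 0 and 10.1 in these low CHIR groups. In high CHIR the endothelial sums were 65.4 to 85.1 without Cre, where *Cdh5*, *Kdr* and *Tie1* were at 0, and 573 to 942 with Cre, of which *Emcn* was 911 and 523. The part of the stroma and *Emcn* signals in the R-spondin values was not tested.

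Without the replicate block limma called no receptor after β-catenin removal. *Lgr4* in high CHIR had 655 and 654 normalized counts without and 962 and 958 with Cre, which did not overlap (log2 fold change 0.55 ± 0.18, adjusted p = 0.0888, limma). The replicate block put this past the threshold (adjusted p = 0.0437). With sgRNAs it was 710.4 and 749 against 958 and 753 (0.22 ± 0.18, adjusted p = 0.561). *Lgr6* in high CHIR was lower after removal, at 69.7 and 51.7 against 12.9 and 10.6 with sgRNAs (-2.27 ± 0.83, adjusted p = 0.144, and 0.0190 where only these groups were fitted) and 27.6 and 7.26 against 3.03 and 3.64 with Cre (-1.83 ± 0.83, adjusted p = 0.229). These *Lgr6* groups did not overlap, at counts near the filter, which the gene passed here only through the high CHIR GFP sgRNA controls. *Lgr5* in high CHIR had 61.7 and 89.2 against 168 and 81.4 with Cre, overlapping (0.65 ± 0.51, adjusted p = 0.525), and 66.7 and 79.4 against 94.8 and 167 with sgRNAs (0.78 ± 0.51, adjusted p = 0.435).

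**Figure D3:**
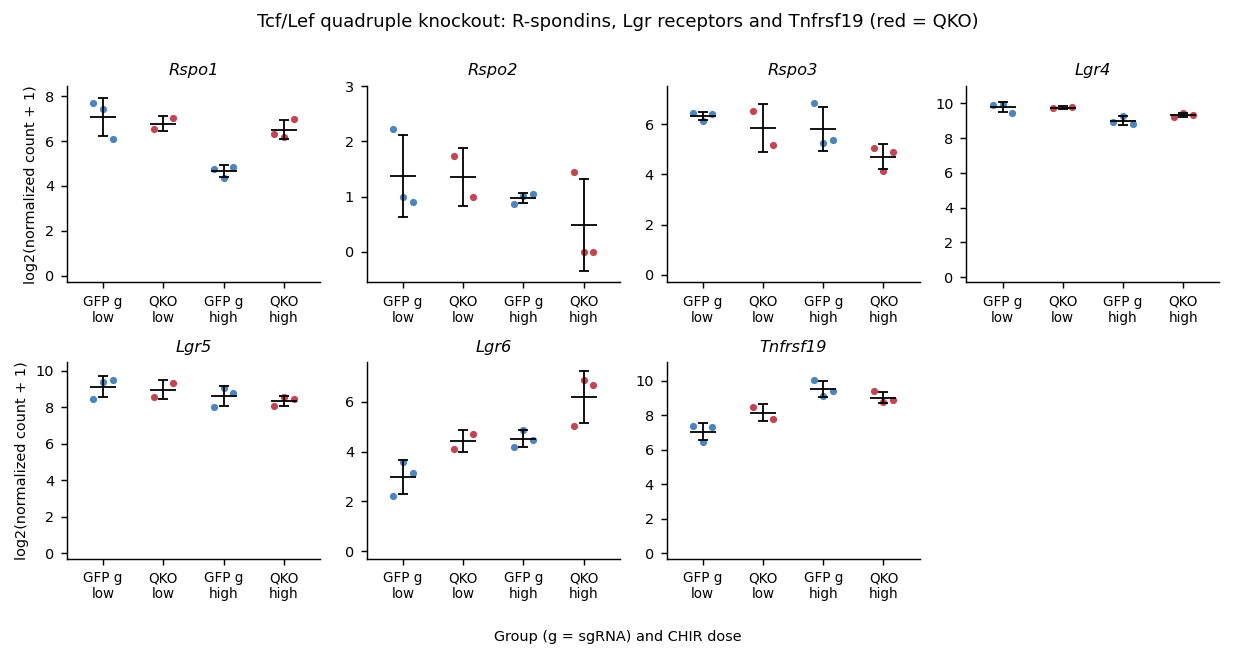
Expression of the 7 members in Tcf/Lef QKO (red) and GFP sgRNA control (blue) NPCs on the log2(normalized count + 1) scale (y axis) by CHIR dose (x axis); points are libraries (n = 3, or 2 for QKO in low CHIR) and bars the mean ± SD. In high CHIR *Rspo1* was 72.7 to 126 normalized counts in QKO and 19.2 to 27.6 in the controls, while *Tnfrsf19* overlapped between them.

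Knockout of all 4 Tcf/Lef genes addressed the same dependence at the level of the DNA-binding partners. In the paper's staining the protein loss after single sgRNAs was partial for Tcf7. Part of the Jag1-positive cells remained in QKO in high CHIR. The part of remaining Tcf/Lef protein in the values below was not tested. In high CHIR *Rspo1* rose 3.63-fold over the controls, and *Tnfrsf19* did not pass the test at either dose. In high CHIR 1 of the 6 members tested was called, against 2.54% of all genes. In low CHIR limma called no member, against 0.00630% of all genes, while 2 members (*Lgr6* and *Tnfrsf19*) had an unadjusted p under 0.05 and edgeR and DESeq2 called 0.

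*Rspo1* in high CHIR had 26.4, 19.2 and 27.6 normalized counts in the controls and 80.0, 72.7 and 126 in QKO. The groups were far apart, and the QKO libraries lay within the range of 67.4 to 204 seen in the low CHIR controls. The log2 fold change was 1.86 ± 0.39 (SE, adjusted p = 0.0293, limma). It was not called by edgeR (1.79, adjusted p = 0.153), which lacked control replicate 2, and the 7 alternative settings ran from 0.0141 to that value. The call was lost without control replicate 1 (1.92, adjusted p = 0.0584) or 2 (1.70, 0.135), or QKO replicate 1 (1.95, 0.0811), 2 (2.01, 0.0760) or 3 (1.62, 0.116). In low CHIR *Rspo1* had 204, 173 and 67.4 against 92.9 and 128 in QKO, overlapping (-0.29 ± 0.44, adjusted p = 0.927). From low to high CHIR within QKO its log2 fold change was -0.27 ± 0.44 (adjusted p = 0.843), and the interaction with dose was 2.15 ± 0.59 (adjusted p = 0.336, and 0.0478 without low CHIR control replicate 3).

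*Rspo3* in high CHIR had 112, 36.4 and 40.4 normalized counts in the controls and 32.2, 16.6 and 28.9 in QKO, all lower than any control. The log2 fold change was -1.11 ± 0.46 (adjusted p = 0.298, limma). The blood markers, of which 6 of 8 were listed, summed to 299 in control replicate 1, the library with 112, and to 12.8 to 35.6 in the other high CHIR libraries. The stroma markers summed to 1054 to 4126 in the controls and 1227 to 8208 in QKO. The part of either in the *Rspo3* values was not tested. *Rspo2* was 0 to 3.67 normalized counts (0 to 3 reads) in this experiment.

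*Lgr6* was higher in QKO at both doses. It had 3.67, 10.9 and 7.78 normalized counts in the controls and 16.3 and 25.4 in QKO in low CHIR, without overlap (log2 fold change 1.44 ± 0.58, adjusted p = 0.904, limma). In high CHIR 17.3, 28.3 and 21.3 stood against 31.3, 117 and 101, again without overlap (1.68 ± 0.52, adjusted p = 0.135). With the replicate block the high CHIR difference passed the test (adjusted p = 0.0121), as it did in DESeq2 without control replicate 2 (2.11, adjusted p = 0.0373) and without QKO replicate 1 (2.27, adjusted p = 0.0442). Over the 7 alternative settings it ran from 0.0121 to 0.166. In high CHIR the *Lgr6* values thus lay below their controls after β-catenin removal and above them in QKO, and no test compared these experiments, which were normalized separately.

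*Lgr4* in high CHIR had 476, 625 and 440.2 normalized counts in the controls and 584, 691 and 643 in QKO, which overlapped (log2 fold change 0.33 ± 0.18, adjusted p = 0.440, limma). *Lgr5* overlapped as well, at 263, 533 and 436 against 265, 375 and 346 (-0.28 ± 0.33, adjusted p = 0.755).

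*Tnfrsf19* in low CHIR had 163, 86.8 and 158 normalized counts in the controls and 358 and 219.9 in QKO. Both QKO libraries lay above the controls (log2 fold change 1.1 ± 0.35, adjusted p = 0.904, limma). In high CHIR 1053, 558 and 669.8 stood against 666, 436 and 468, overlapping (-0.51 ± 0.31, adjusted p = 0.50). The step from low to high CHIR was thus 0.87 ± 0.35 on the log2 scale in QKO (adjusted p = 0.255), where the controls had 2.48 ± 0.31. The replicate block put the QKO step past the threshold (1.07, adjusted p = 0.00907). The difference between the 2 steps was -1.61 ± 0.47 (adjusted p = 0.403, limma) without the block and -1.40 ± 0.26 (adjusted p = 0.0371) with it, and DESeq2, which lacked high CHIR control replicate 2, gave -1.79 (adjusted p = 0.0394). The 7 alternative settings ran from 0.0371 to 0.422.

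In the dose step within QKO, chosen after the data were seen, and in its interaction limma called no member, against 2.54% and 0.126% of all genes. At an unadjusted p under 0.05 there were 4 members (*Lgr4*, *Lgr6*, *Rspo3* and *Tnfrsf19*) and 2 (*Rspo1* and *Tnfrsf19*), edgeR called 0 in both and DESeq2 called 1 in each. With the replicate block 3 members were called in the QKO step, *Tnfrsf19*, *Lgr6* (1.5, adjusted p = 0.0457) and *Lgr5* (-0.78, adjusted p = 0.0253).

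**Figure D4:**
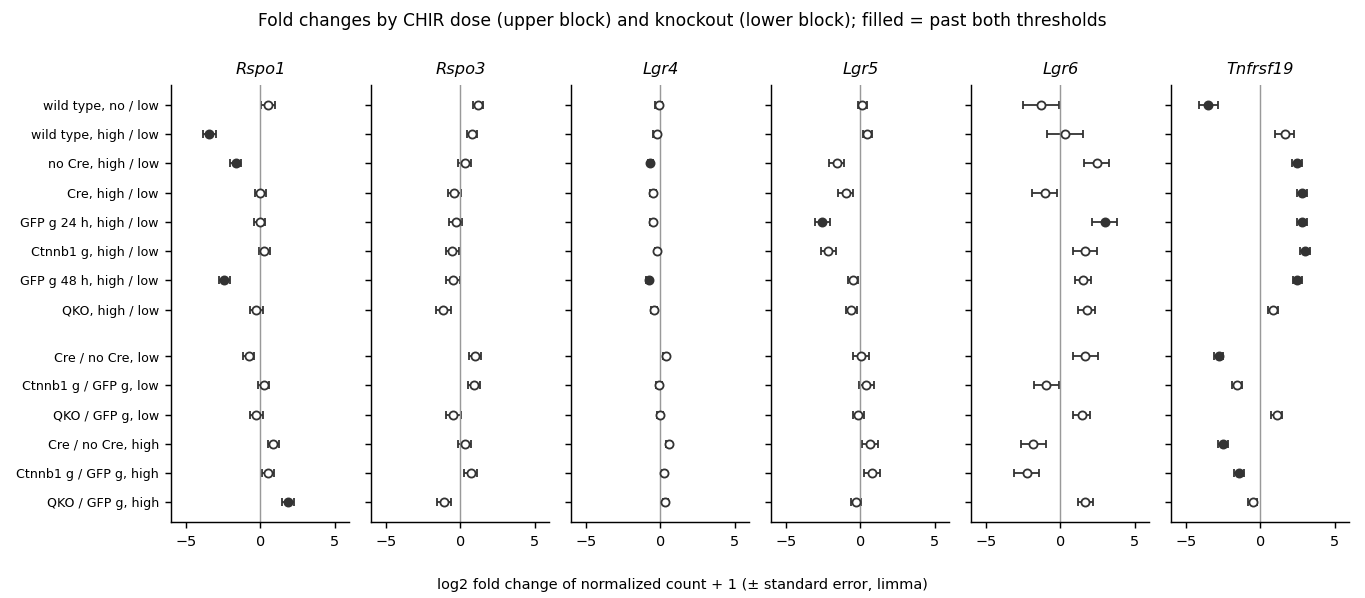
Log2 fold changes (x axis, ± SE) of the 6 tested members in 14 comparisons, from limma on log2(normalized count + 1); filled points passed both thresholds (adjusted p 0.05, log2 change 0.5). *Tnfrsf19* carries most filled points, while *Rspo3* carries none. The *Tnfrsf19* values run from -3.51 for no against low CHIR in wild-type cells to 2.99 for high against low CHIR after *Ctnnb1* sgRNAs.

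The partners of R-spondin signaling at the membrane were a list of 19 further genes, namely *Rspo4*, the 2 ligases, *Lrp5* and *Lrp6*, the 10 Frizzled and 3 Dishevelled genes and *Sdc4*. In wild-type NPCs 17 were tested, of which 3 rose and 5 fell between low and high CHIR, against 10.4% of all genes called in either direction. The list median was 0.12 on the log2 scale, with 0.01 for all genes. Without high CHIR replicate 3, a fit added after the data were seen, 4 rose and 5 fell. Between no and low CHIR only *Sdc4* was called (4.97% of all genes), higher without CHIR, and between no and high CHIR 6 rose and 5 fell (23.4% of all genes), with the same counts without replicate 3. With Cre in high CHIR 3 rose and 3 fell of 16 (8.65% of all genes), and with *Ctnnb1* sgRNAs 3 rose and 1 fell (5.09%). In QKO in high CHIR 2 rose and 1 fell of 16 (2.54%). In low CHIR limma called none after any of the 3 knockouts, and with the replicate block it called *Fzd2* with Cre (-0.69, adjusted p = 0.0412).

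*Znrf3*, the ligase that R-spondins bind and inhibit, had 2119.5, 1589 and 1491 normalized counts in low and 3409, 3551 and 4976 in high CHIR (log2 fold change 1.19 ± 0.24, adjusted p = 0.0106, limma, and 1.02 without replicate 3, adjusted p = 0.0134). It rose in all 3 control sets and fell on β-catenin removal in high CHIR, by 1.44 on the log2 scale with Cre (adjusted p = 7.01e-05) and by 1.11 with sgRNAs (adjusted p = 0.00118). In QKO in high CHIR its values were 2368, 2558 and 2533 against 2566, 2987 and 2868 in the controls (-0.17, adjusted p = 0.573). Like *Tnfrsf19*, *Znrf3* was thus called lower after β-catenin removal in high CHIR and not called in QKO, and the difference between these knockouts was not tested.

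*Rnf43*, the paralog of *Znrf3*, had 3.57, 2.93 and 2.23 normalized counts in no CHIR, 18.4, 18.0 and 13.2 in low CHIR and 65.0, 50.3 and 914 in high CHIR. The groups did not overlap, and high CHIR against no CHIR was called (log2 fold change 5.23 ± 0.91, adjusted p = 0.00248, limma). Without high CHIR replicate 3, the library with 914, it was 3.91 (adjusted p = 2.00e-04). Against low CHIR it was 3.07 with all libraries (adjusted p = 0.0586) and 1.74 without that library (adjusted p = 0.0433). *Rnf43* passed the filter in wild-type NPCs only through its high CHIR libraries, so its calls are drawn from the group where it is high. It was below the filter in the other tables. *Rspo4*, the remaining R-spondin, was below it in all, at 0 to 19.6 normalized counts.

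The co-receptor *Lrp6* fell between low and high CHIR in wild-type NPCs (-0.76 ± 0.21, adjusted p = 0.0414, limma), from 1578 to 2456 to 1121 to 1332 normalized counts. This call was lost without high CHIR replicate 3 (-0.69, adjusted p = 0.0619). It rose with Cre in high CHIR (0.64 ± 0.16, adjusted p = 0.0189), from 905 and 933 to 1432 and 1443. Its relative *Lrp5* was called in no comparison. *Sdc4*, a cell-surface proteoglycan known to bind R-spondins, fell by 1.65 on the log2 scale between low and high CHIR (adjusted p = 0.000896), and by 1.38 without replicate 3. In high CHIR it rose with Cre (1.41, adjusted p = 0.000452), with *Ctnnb1* sgRNAs (1.32, adjusted p = 0.00146) and in QKO (1.85, adjusted p = 0.000476).

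Among the Frizzled genes, which encode the receptors that Znrf3 and Rnf43 clear, *Fzd6* and *Fzd10* rose and *Fzd2*, *Fzd4* and *Fzd7* fell between low and high CHIR in wild-type NPCs. *Fzd6* went from 88.0, 29.4 and 39.5 to 1250.4, 1329 and 1087 normalized counts (log2 fold change 4.67 ± 0.40, adjusted p = 8.57e-05, limma, and 4.75 without replicate 3). *Fzd10* went from 2.63, 4.75 and 2.40 to 152, 168 and 2176, the last again in replicate 3, and its log2 fold change was 6.53 with and 5.28 without that library. Its low CHIR values lay below the 10 normalized counts of the filter. Its call, which the list counts above include, thus rests on the group where it is high. *Fzd4* went from 1118, 1163 and 2078 to 399, 588 and 56.1 (-2.55 ± 0.69, adjusted p = 0.0414, and -1.52 without replicate 3, adjusted p = 0.00273). *Fzd2* and *Fzd7* fell by 1.52 and 1.66 on the log2 scale, and by 1.46 and 1.76 without replicate 3.

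In high CHIR *Fzd4* rose with Cre (2.98 ± 0.28, adjusted p = 1.93e-05, limma), with sgRNAs (2.03 ± 0.28, adjusted p = 0.000888) and in QKO (1.58 ± 0.18, adjusted p = 0.00107). *Fzd6* fell with Cre (-2.75 ± 0.59, adjusted p = 0.00942) and in QKO (-1.53 ± 0.32, adjusted p = 0.0293). With sgRNAs its log2 fold change was -1.84 (adjusted p = 0.0943, and 0.0406 with the replicate block). *Fzd10* fell with Cre (-2.59 ± 0.75, adjusted p = 0.0477), and in QKO its log2 fold change was -0.96 (adjusted p = 0.520). In QKO the *Rspo1*, *Sdc4* and *Fzd4* values in high CHIR thus all lay above those of their controls, without overlap.

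**Figure D5:**
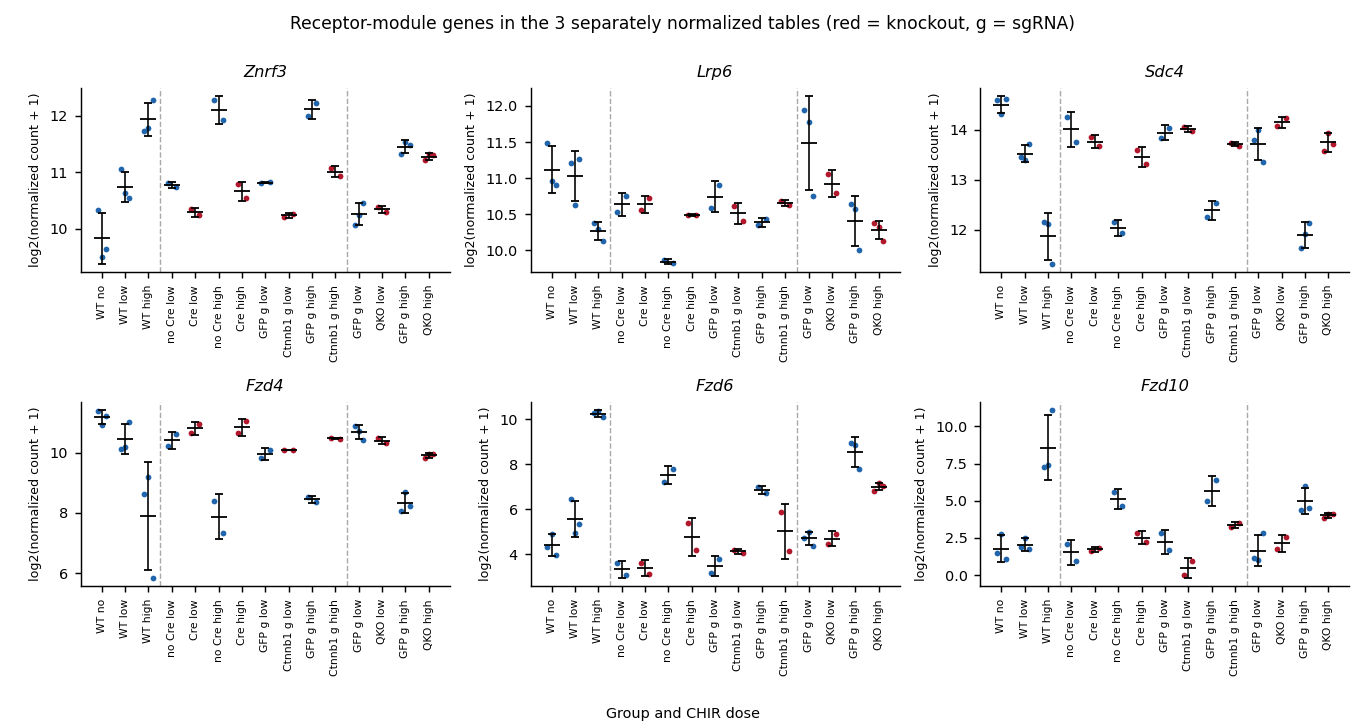
Expression of 6 genes of the R-spondin receptor list on the log2(normalized count + 1) scale (y axis) in all 15 groups (x axis); points are libraries, bars the mean ± SD, red marks knockouts and dashed lines separate the 3 tables, which were normalized separately. *Fzd4* and *Sdc4* are low in high CHIR controls (for *Fzd4* 161 to 416 normalized counts) and higher in every knockout group in high CHIR (903 to 2122).

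A list of 10 partners and relatives of *Tnfrsf19* held Traf adaptors, receptors of the same family and the co-receptors with which Tnfrsf19 can form a receptor for myelin inhibitors in neurons. In wild-type NPCs 9 were tested, of which 1 rose and 3 fell between low and high CHIR, against 10.4% of all genes called in either direction. Without high CHIR replicate 3, 1 rose and 2 fell of 8 tested. The list median was -0.34 on the log2 scale, with 0.01 for all genes. *Tnfrsf21*, a relative with a death domain, had 125, 102 and 105 normalized counts in no CHIR, 242, 219 and 247 in low CHIR and 396, 412 and 483 in high CHIR. It rose at each step, with log2 fold changes of -1.09 ± 0.18 for no against low (adjusted p = 0.0110, limma) and 0.86 ± 0.18 for high against low CHIR (adjusted p = 0.0122, and 0.77 without replicate 3).

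Of the partners that fell, *Lingo1* and *Ngfr* are co-receptor components in neurons and *Traf5* is an adaptor. *Lingo1* had 399, 353 and 305 normalized counts in low and 41.5, 44.7 and 278 in high CHIR (log2 fold change -2.11 ± 0.60, adjusted p = 0.0497, limma, and -3.00 without replicate 3). It rose on β-catenin removal in high CHIR with Cre (1.37 ± 0.32, adjusted p = 0.0144) and with sgRNAs (1.81 ± 0.32, adjusted p = 0.00448). *Ngfr* fell by 1.70 between low and high CHIR (adjusted p = 0.0311), by 2.23 without replicate 3, and by 1.79 with Cre in high CHIR (adjusted p = 0.0134). *Traf5* fell by 1.18 between low and high CHIR (adjusted p = 0.0380), a call lost without replicate 3 (-0.91, adjusted p = 0.0683). In QKO in high CHIR 1 of 8 tested partners, the relative *Eda2r*, rose (1.71 ± 0.40, adjusted p = 0.0470), where 2.54% of all genes were called. In low CHIR limma called no partner after any knockout, and with the replicate block it called *Ngfr* with Cre (-0.93, adjusted p = 0.0266).

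Genes with patterns like those of the members were found by Pearson's r over all 36 libraries, among 14952 genes. Each r was taken on log2(normalized count + 1) after centring each gene on its mean in each table. These values are descriptions, since the libraries share doses, tables and normalization. *Rspo1* was most like *Six2*, the transcription factor of self-renewing NPCs, at r = 0.936, followed by *Kif13a* (0.928) and *Clmp* (0.924). *Tnfrsf19* was most like *Trim2* (0.950), *Minar2* (0.925) and *Kif5c* (0.919). The other members had weaker neighbours, led by *Zbtb7a* for *Lgr4* (0.811), *Cep19* for *Lgr5* (0.779), *Mxra8* for *Rspo3* (0.745) and *Mlxipl* for *Lgr6* (0.710). Between members the strongest relation was that of *Lgr4* and *Tnfrsf19* (r = -0.640), followed by *Lgr6* and *Tnfrsf19* (0.585), *Lgr5* and *Tnfrsf19* (-0.534) and *Rspo1* and *Tnfrsf19* (-0.521).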

How the data were processed

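Bulk RNA was converted to cDNA with a SMARTer Ultra Low kit and sequenced as paired reads of 150 bases. The authors aligned reads with STAR to a combined mouse and human genome (GRCm38 and GRCh38, Ensembl release 76), counted uniquely aligned reads per gene with featureCounts and divided the counts by DESeq2 size factors. The deposited signal values are thus normalized counts, made separately for 3 tables. The strand setting is not given in the sources used here. The authors' comparison tables, which hold fold changes and p-values, were not used.

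Genes whose mean in a table reached 10 normalized counts (17411, 16780 and 15878 genes) were tested with limma 3.58.1 (trend, R 4.3.3) on log2(normalized count + 1), with all libraries of the table in 1 fit. In all 36 libraries the values came out as whole multiples of the smallest value (tolerance 0.01 reads). As alternatives, edgeR 4.0.16 and DESeq2 1.42.0 were run on the counts recovered in 33 of them. The other 3 libraries were left out of the count tests, although their values met the same tolerance. Scripts were tested on simulated data. Samples were grouped by the labels, and all columns were used.

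The members and lists were chosen with earlier results of these data known. Partner genes were named with values where the list names a ligase, a co-receptor or *Rspo4*, and otherwise where called in at least 2 of 9 comparisons (3 between wild-type doses and 6 knockouts). *Eda2r* was named after its values were seen. Same-numbered libraries deviated together in the Tcf/Lef table (correlation 0.214 to 0.637 over 15 pairs of libraries) and in the β-catenin table (0.116 to 0.518 over 24 pairs). The latter has 2 libraries per group, so replicates 1 and 2 give the same correlation by construction and its pairs are not all separate. The replicate block is given for both tables where it changes a call.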

Additional observations from a re-analysis of the deposited data

Results flagged for a closer look

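The response of *Tnfrsf19* to the step from low to high CHIR differed between QKO and control NPCs in the fit with the replicate block, where the difference of the log2 fold changes was -1.40 (adjusted p = 0.0371, limma). Without the block it was -1.61 (adjusted p = 0.403), and it ran from -1.96 to -1.26 with 1 library left out. All 3 QKO and all 3 control libraries in high CHIR held more *Tnfrsf19* than the libraries in low CHIR with the same sgRNAs. The blocked fit was used for flagging in the Tcf/Lef experiment only. In the β-catenin experiments it also put the *Rspo1* interaction of Cre and dose past the threshold (1.66, adjusted p = 0.0129, limma). Without the block that interaction had an adjusted p of 0.260.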

How the results depend on the processing

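Member values were recomputed with another pseudocount, no filter, edgeR's TMM scaling, edgeR, DESeq2, a replicate block and only the groups compared. Of 741 such values, 709 stayed on their side of the threshold, 9 lost and 23 gained a call, and none called turned its sign. With 1 library left out, 568 of 594 stayed, 23 lost and 3 gained a call. Counts of members called, out of 6 (7 where *Rspo2* entered the fit), that moved by over 1.5 times were as follows. DESeq2 gave 2 for high against low CHIR, 2 for no against low CHIR, 2 for dose after *Ctnnb1* sgRNAs, 2 for QKO in high CHIR, 1 for the QKO interaction and 1 for dose within QKO. With edgeR the QKO count in high CHIR was 0. Both count tests lacked 3 libraries, control replicate 2 of that comparison among them. Without the filter, 2 were called for no against low CHIR and 2 for Cre in high CHIR, in each case by adding *Rspo2*. With only the groups compared, the counts were 3 for no against low CHIR, 0 for Cre in low CHIR, 2 for *Ctnnb1* sgRNAs in high CHIR, 0 for dose after Cre and 2 for dose after *Ctnnb1* sgRNAs. Leaving out 1 library gave 0 to 1 for no against low CHIR, 0 to 0 for *Ctnnb1* sgRNAs in high CHIR, 1 to 3 for dose in the Cre-negative and in the GFP sgRNA controls, 0 to 1 for QKO in high CHIR, 0 to 1 for its interaction and 0 to 1 for dose within QKO. The causes were not tested.

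With the replicate block the counts were 3 for Cre in high CHIR, 1 for its interaction, 2 for dose after *Ctnnb1* sgRNAs, 2 for QKO in high CHIR, 5 for dose in the Tcf/Lef controls, 1 for the QKO interaction and 3 for dose within QKO. Wild-type libraries share only a number (correlation -0.0156 to 0.272). A lone library left in a group was assumed to vary like the other groups. *Rspo2* was below the filter on low values in each table in the fits as reported.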
